A study of Mus musculus with 36 samples.

Results

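The expression of 8 genes of the Wnt pathway, Axin2, Lef1, Tcf7l1, Tcf7l2, Ctnnb1, Dkk3, Sfrp1 and Wif1, was followed through a first and a second skin wound in the progeny of 2 kinds of hair follicle (HF) stem cell. The genes were taken by name, and all 8 were found among the 20181 genes of the table for Lrig1 progeny (Lrig1 GL) and among the 22587 genes of the table for Lgr5 progeny (Lgr5 GL). All 8 also passed the filter on low counts in both tables. In edgeR's quasi-likelihood test a single gene of the 8, Dkk3 in Lgr5 GL cells, was called as changed over the time course. That call was lost once estimated surrogate variables, which stand for variation shared by many genes, were added to the model (adjusted p = 0.129). With them the time course test called 0 of all Lgr5 GL genes in place of 203. Lef1 was called as well by DESeq2 and by the likelihood ratio test, and the latter called 1975 genes. On average over the time points 5 of the 8 were called lower in Lrig1 GL than in Lgr5 GL. In this contrast 19.3% of all genes were called, and Ctnnb1 and Tcf7l2 were lower by less than the required fold. The contrast was chosen after the data were seen, and estimated surrogate variables took away all 5 calls. Over all genes they left 12 called in place of 3124.

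Wnt ligands act through Frizzled and Lrp receptors to stop the degradation of beta-catenin, the product of Ctnnb1, which then enters the nucleus and binds DNA through the TCF and LEF factors. Tcf7l1 acts mostly as a repressor and is a known factor of bulge stem cells, Tcf7l2 is its relative, and Lef1 is a factor of the hair germ, matrix and shaft precursors. Axin2 is a target of the pathway that feeds back to degrade beta-catenin, Sfrp1 and Wif1 are secreted proteins that bind Wnt ligands, and Dkk3 is a secreted relative of the Dickkopf inhibitors whose own effect on Wnt signalling depends on the cell. In HFs the pathway is known for starting hair growth, and secreted inhibitors are known products of the resting bulge.

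RNA was measured by mini-bulk RNA-seq of tdTomato+ epidermal cells, sorted in small fixed numbers from tail skin that held the wound bed and the distal HFs. Young adult mice carried either Lrig1-EGFP-ires-CreERT2 or Lgr5-EGFP-ires-CreERT2 together with Rosa26-fl/STOP/fl-tdTomato, and a single topical dose of hydroxytamoxifen before the wound labelled the cells that used the Lrig1 or the Lgr5 promoter, so later cells are their descendants wherever they had moved. Full-thickness wounds were made at 0w, and again at 8w over the first wound. Each population had 3 libraries at each of 6 time points, which are unwounded skin (0w), 1, 2, 4 and 8 weeks after the first wound (pw1) and 1 week after the second wound (1w pw2, at week 9).

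The libraries held between 765252 and 3365666 counts in Lrig1 GL and between 1297798 and 6960537 in Lgr5 GL cells. Levels are given in CPM, counts relative to library size after TMM scaling over all 36 libraries. A gene at 0 counts could be present at up to 3 counts, which is 0.891 to 3.01 CPM in the Lrig1 GL and 0.434 to 3.44 CPM in the Lgr5 GL libraries. These limits cover counting error only, since the libraries carried no molecular identifiers. In bulk RNA, fewer cells of a type and less RNA per cell cannot be told apart. All 8 keratinocyte markers were detected in every library, and markers of immune and endothelial cells summed to 36.9 CPM or less. Of the 10 immune markers, though, only 4 are listed for Lrig1 GL and 2 for Lgr5 GL cells. Melanocyte markers summed to at most 50.9 CPM in Lrig1 GL and 100 CPM in Lgr5 GL libraries. Fibroblast markers summed to at most 117 and 595 CPM. Mean Lgr5 mRNA at 0w was 487 CPM in Lgr5 GL and 121 CPM in Lrig1 GL cells, and mean Lrig1 mRNA was 87.5 and 189 CPM. For both genes the 3 libraries of one line at 0w did not overlap those of the other. At 2w pw1 and 4w pw1 mean Lrig1 mRNA was higher in Lgr5 GL (176 and 168 CPM) than in Lrig1 GL (88.6 and 65.0 CPM). These groups did not overlap either. A single transcript, Gm12415, took 12 to 52.1% of the counts in Lgr5 GL and at most 2.12e-04% in Lrig1 GL libraries, and it was removed before scaling in one of the alternatives.

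The 8 genes lie on 8 chromosomes. In GENCODE release M21 on GRCm38, Axin2 (ENSMUSG00000000142) is at chr11:108920349-108950783 on the plus strand, Lef1 at chr3:131110471-131224356 on the plus strand, Tcf7l1 at chr6:72626378-72789254 on the minus strand and Tcf7l2 at chr19:55741820-55933654 on the plus strand. Ctnnb1 is at chr9:120929216-120960507 on the plus strand, Dkk3 at chr7:112116017-112159057 on the minus strand, Sfrp1 at chr8:23411502-23449632 on the plus strand and Wif1 at chr10:121033960-121100650 on the plus strand. Reads were counted over all exons of a gene name, and whether strand was used is not given. Exons of Ctnnb1 share 14.6% of their bases with Ulk4 on the opposite strand, and those of Lef1 share 13.7% with the antisense gene Gm43352. For Axin2 and Tcf7l1 the antisense genes Gm11670 and Gm15401 share 3.80 and 4.56%, and reads from such a pair cannot be told apart without strand.

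Per kilobase of exon, which allows levels to be compared between genes, the order of the 8 genes differed between the populations. In Lrig1 GL cells the mean over 18 libraries was 28.1 CPM per kb for Ctnnb1, 20.5 for Tcf7l2, 19.4 for Sfrp1 and 16.1 for Dkk3. It was 4.73 for Tcf7l1, 3.90 for Axin2, 3.06 for Wif1 and 0.354 for Lef1. In Lgr5 GL cells Dkk3 (51.0 CPM per kb), Sfrp1 (48.5) and Ctnnb1 (48.4) led, and Tcf7l2 (27.1), Tcf7l1 (19.2), Wif1 (19), Axin2 (2.82) and Lef1 (2.26) followed. Axin2 was therefore among the lowest of the 8 in both populations, while Tcf7l1 and Wif1 stood well above it in Lgr5 GL cells alone. Counts behind the low genes were few, and Lef1 was at 0 counts in 8 of 18 Lrig1 GL and 1 of 18 Lgr5 GL libraries. Wif1 was at 0 counts in 10 of 18 Lrig1 GL and 3 of 18 Lgr5 GL libraries.

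**Figure D1:**
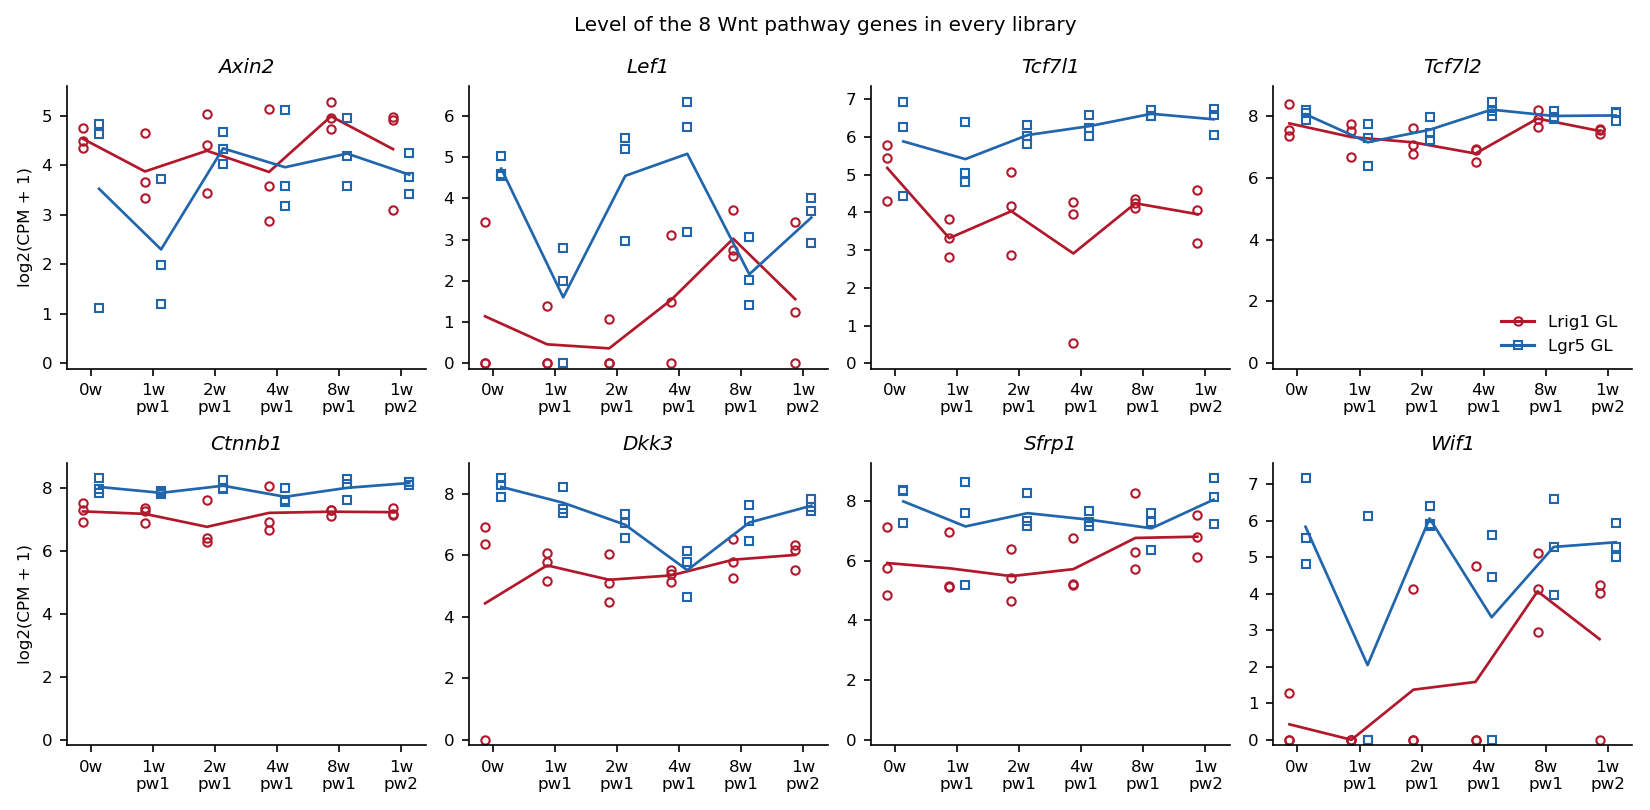
Level of each gene as log2(CPM + 1) (vertical axis) at the 6 time points (horizontal axis), with each of the 3 libraries of a group as a circle (Lrig1 GL) or square (Lgr5 GL) and lines through the means of the plotted values. Tcf7l1 and Ctnnb1 lie lower in Lrig1 GL at most time points, Dkk3 in Lgr5 GL goes down to 4w pw1 and up again, and the Wif1 and Lef1 points reach 0.

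The test across the time course asked whether a gene changed at any time after the wound. For Lrig1 GL, it called 0 of the 8 genes, where 1.63% of 14306 genes tested were called (edgeR's quasi-likelihood F-test, p adjusted by Benjamini-Hochberg under 0.05, with a log2 change above 1 in size at any time). A single gene of the 8, Tcf7l2, had an unadjusted p under 0.05 there (adjusted p = 0.236), and DESeq2 called 0 as well. For Lgr5 GL, it called 1 of the 8, Dkk3, where 1.13% of 18025 genes were called. Lef1 came next with an adjusted p of 0.100, and DESeq2 (adjusted p = 3.48e-04) and the likelihood ratio test (adjusted p = 8.39e-04) called it, which made 2 of the 8 in each. Over all genes the likelihood ratio test called 1975 in place of 203, so it called more genes of any kind. With 3 libraries a group, p-values measure the spread between libraries, and an exact permutation test of 1 gene between 2 groups could not go below 0.1.

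Single time points were compared with 0w. In Lrig1 GL cells 0 of the 40 gene and time point pairs were called, where 0.217% of all genes were called at 1w pw1, 0% at 2w pw1, 0.0419% at 4w pw1, 2.82% at 8w pw1 and 1.23% at 1w pw2. An unadjusted p under 0.05 was reached by 3 of the 40 pairs, Tcf7l1 at 1w pw1 and 4w pw1 and Tcf7l2 at 4w pw1. In Lgr5 GL cells 1 of 40 pairs was called, Dkk3 at 4w pw1, where the background was 1.29% at 1w pw1, 0% at 2w pw1, 0.155% at 4w pw1, 0% at 8w pw1 and 0% at 1w pw2. An unadjusted p under 0.05 was reached by 6 of these 40 pairs. All 3 libraries lay below those at 0w in 3 of 40 pairs in Lrig1 GL and 8 of 40 in Lgr5 GL, and above them in 1 and 0. The share over all genes was not counted within a population, and an exact permutation test gives 0.1 for such a separation. Where groups are said not to overlap below, that is a description and not a result. At 1w pw1 the fitted change was below 0 for 8 of 8 genes in each population, with a median log2 change of -0.53 for Lrig1 GL and -0.73 for Lgr5 GL, and none of these was called. Over all genes tested it was below 0 for 7435 of 14306 with a median of -0.05 in Lrig1 GL, and for 9539 of 18025 with a median of -0.08 in Lgr5 GL cells.

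**Figure D2:**
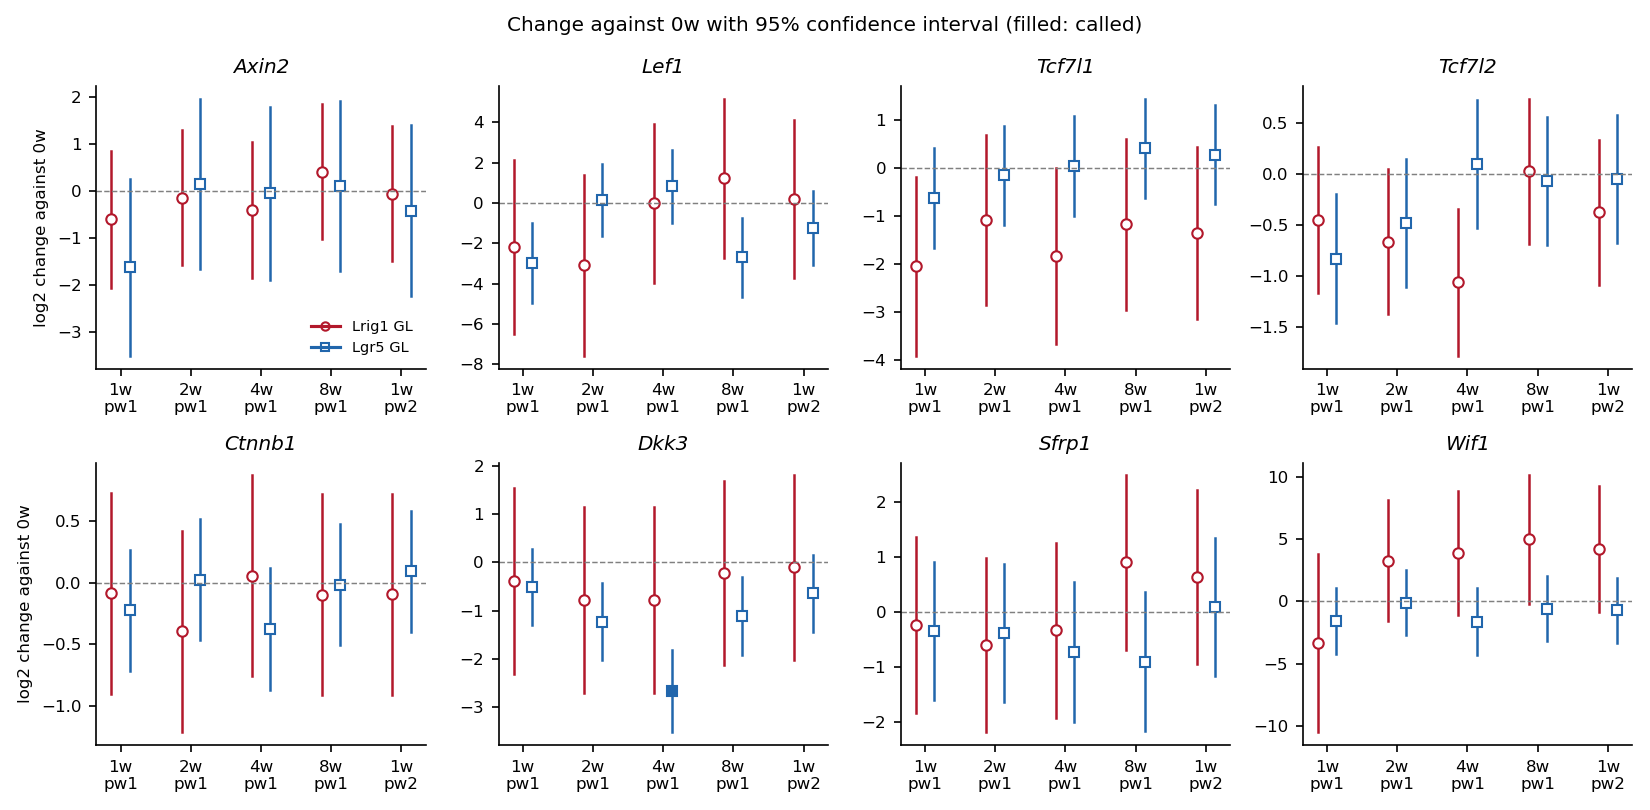
Fitted log2 change of each gene against 0w (vertical axis) at the 5 later time points (horizontal axis), with 95% confidence intervals as bars, circles for Lrig1 GL and squares for Lgr5 GL, and filled symbols where the change was called. Dkk3 in Lgr5 GL at 4w pw1 is the one filled symbol, and the Lef1 and Wif1 intervals in Lrig1 GL are several log2 units wide.

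Ctnnb1, which encodes beta-catenin itself, had the steadiest level of the 8. For Lgr5 GL, its CPM at 0w was 314, 247 and 224 in the 3 libraries, and the highest group mean was 1.34 times the lowest. For Lrig1 GL, it was 120, 183 and 156 at 0w, and the ratio of highest to lowest group mean was 1.37. Against 0w its largest log2 change was -0.39 at 2w pw1 for Lrig1 GL (95% CI -1.21 to 0.42) and -0.38 at 4w pw1 in Lgr5 GL cells (-0.87 to 0.12). Neither population had a called change against 0w.

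Tcf7l1 was lower at 1w pw1 and 4w pw1 than at 0w in Lrig1 GL libraries without passing the test, and overlapped 0w at the other times. Its level in Lrig1 GL was 42.6, 54.3 and 18.8 CPM at 0w and 13.2, 9.02 and 6.0 CPM at 1w pw1. At 4w pw1 it was 0.442, 18.2 and 14.4 CPM, and the lowest of these is 1 read. All 3 libraries at each of these time points lay below all 3 at 0w, by a narrow margin at 4w pw1. The log2 change was -2.05 at 1w pw1 (SE 0.88, adjusted p = 0.403) and -1.84 at 4w pw1 (SE 0.87, adjusted p = 0.594). In Lgr5 GL cells Tcf7l1 ran from 20.8 to 122 CPM at 0w and from 93.6 to 105 CPM at 8w pw1, with a log2 change of 0.41 (SE 0.49).

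Tcf7l2 was lowest at 4w pw1 in Lrig1 GL and at 1w pw1 in Lgr5 GL cells. In Lrig1 GL it measured 333, 186 and 164 CPM at 0w and 91.0, 123 and 118 CPM at 4w pw1, with all later values below all earlier ones. The log2 change was -1.06 (SE 0.34, adjusted p = 0.424). In Lgr5 GL it measured 276, 291 and 235 CPM at 0w and 83.4, 216 and 157 CPM at 1w pw1, again without overlap. That log2 change was -0.83 (SE 0.30, adjusted p = 0.153). After the second wound it was at 273, 280 and 228 CPM in Lgr5 GL cells, close to its level at 0w (log2 change -0.05, 95% CI -0.68 to 0.58).

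Lef1, the factor of the hair germ and matrix, was the most variable of the TCF and LEF factors. Within Lgr5 GL it measured 22.3, 23.2 and 31.6 CPM at 0w and 2.99, 0 and 5.97 CPM at 1w pw1. At 2w pw1 it was 6.86, 42.8 and 35.9 CPM and at 4w pw1 it was 8.02, 51.8 and 80.2 CPM. At 8w pw1 the values were 3.04, 7.30 and 1.65 CPM, and at 1w pw2 they were 6.51, 11.9 and 15.0 CPM. The libraries of 1w pw1 and 8w pw1, and those after the second wound, lay below all those at 0w, and those at 2w pw1 and 4w pw1 overlapped them. The log2 change was -2.97 at 1w pw1 (SE 0.95, adjusted p = 0.113) and -2.68 at 8w pw1 (SE 0.93, adjusted p = 0.723) in edgeR's test, so neither was called, nor was that of -1.23 at 1w pw2 (adjusted p = 0.937). DESeq2 called the change at 1w pw1 (adjusted p = 0.00983) and so did edgeR's likelihood ratio test (adjusted p = 0.0241). Over all genes DESeq2 called 1425 there, where edgeR's quasi-likelihood test called 232. In Lrig1 GL cells Lef1 stayed at or under 12.2 CPM in all 18 libraries, and its only time point with counts in all 3 was 8w pw1 (5.68, 5.10 and 12.2 CPM).

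Lef1 and the markers of the growing hair both had their widest spread at 4w pw1 in Lgr5 GL cells, but not in the same order of libraries. The 18 listed markers of hair matrix, shaft and inner root sheath summed to 948, 6009 and 2022 CPM in the 3 libraries in which Lef1 was 8.02, 51.8 and 80.2 CPM. The same sums ran from 181 to 897 CPM at 0w and from 73.3 to 264 CPM at 1w pw1, with 14 and 12 of the 18 markers detected in all 3 libraries. The 0w library with the highest Lef1 (31.6 CPM) had the lowest of the 0w sums, 181 CPM. Krt85 is not listed for Lgr5 GL cells, and Krt34 was at 0 at 0w. The part of these cells in the Lef1 level was not tested. Without the library of the highest sum, the mean of Lef1 at 4w pw1 was 44.1 CPM, against 46.7 CPM with it. The libraries kept had sums of 948 and 2022 CPM, above every 0w library, so this mean cannot separate the part of these cells. The library with the lowest Lef1 at 4w pw1 (8.02 CPM) also had the lowest sum (948 CPM).

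Axin2, the feedback target, had no called change in either population. Within Lrig1 GL it was 26.2, 19.4 and 21.6 CPM at 0w, 9.07, 24 and 11.6 CPM at 1w pw1 and 38.1, 25.5 and 30.2 CPM at 8w pw1. In Lgr5 GL cells it was 27.6, 23.9 and 1.15 CPM at 0w and 2.99, 1.29 and 12.1 CPM at 1w pw1, where its group mean was lowest. One 0w library with 3 counts makes the Lgr5 GL groups overlap. The log2 change at 1w pw1 was -0.60 (95% CI -2.06 to 0.85) in Lrig1 GL and -1.62 (-3.50 to 0.26) in Lgr5 GL cells, so a change of more than 2 log2 units downward is within both intervals.

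Among the secreted inhibitors, Dkk3 fell in Lgr5 GL cells and was at its lowest 4 weeks after the first wound. It measured 234, 361 and 310 CPM at 0w, 165, 181 and 296 CPM at 1w pw1 and 94.0, 130 and 162 CPM at 2w pw1. At 4w pw1 it was 24.1, 53.3 and 68.6 CPM, from 21 to 111 counts. It was 87.2, 195 and 136 CPM at 8w pw1 and 190, 223 and 171 CPM at 1w pw2. The 3 libraries at 4w pw1 lay below all 15 others of this population, and those at 2w pw1, 8w pw1 and 1w pw2 also lay below those at 0w. From 301 ± 64.0 CPM at 0w to 48.7 ± 22.6 CPM at 4w pw1 (SD, n = 3 each), the highest and lowest group means, the ratio was 6.19. Dkk3 fell by 2.67 on the log2 scale at 4w pw1 (SE 0.41, 95% CI of the change -3.52 to -1.81, adjusted p = 0.0140 in edgeR's quasi-likelihood test), and the test over the time course gave an adjusted p of 0.0252. The log2 changes at the other times were -0.50 at 1w pw1, -1.23 at 2w pw1 (adjusted p = 0.336), -1.11 at 8w pw1 and -0.64 at 1w pw2, and these did not pass. With estimated surrogate variables the change at 4w pw1 was -2.36 (adjusted p = 0.120) and the time course gave an adjusted p of 0.129, so both calls were lost. Over all genes that fit called 3 at 4w pw1 in place of 28, and 0 over the time course in place of 203. Without library b at 4w pw1 the change was -2.76 with an adjusted p of 0.0679, and without library a it was -2.37 with an adjusted p of 0.0703. The time course call was also lost without library b at 0w (adjusted p = 0.0608), b at 4w pw1 (0.0823) or c at 4w pw1 (0.0522).

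The summed markers of the lower follicle and bulge did not follow Dkk3 at every time point. All 10 of the listed markers were detected in every Lgr5 GL group, and their sum was 17778 to 25331 CPM at 0w, 6326 to 13923 CPM at 1w pw1 and 8186 to 10566 CPM at 2w pw1. It was 5609 to 8454 CPM at 4w pw1, where Dkk3 was lowest too, and 24690 to 26399 CPM at 8w pw1, within or above the range at 0w, where Dkk3 lay below its own range at 0w. Most of this sum was Krt15, with a mean of 18013 CPM at 0w and 21459 CPM at 8w pw1. Cd34 (187 and 77.5 CPM) and Lgr5 (487 and 261 CPM) of the same list had lower means at 8w pw1, with overlapping libraries. The other markers of the list are not given singly. The part of bulge cells in the fall of Dkk3 was not tested.

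**Figure D3:**
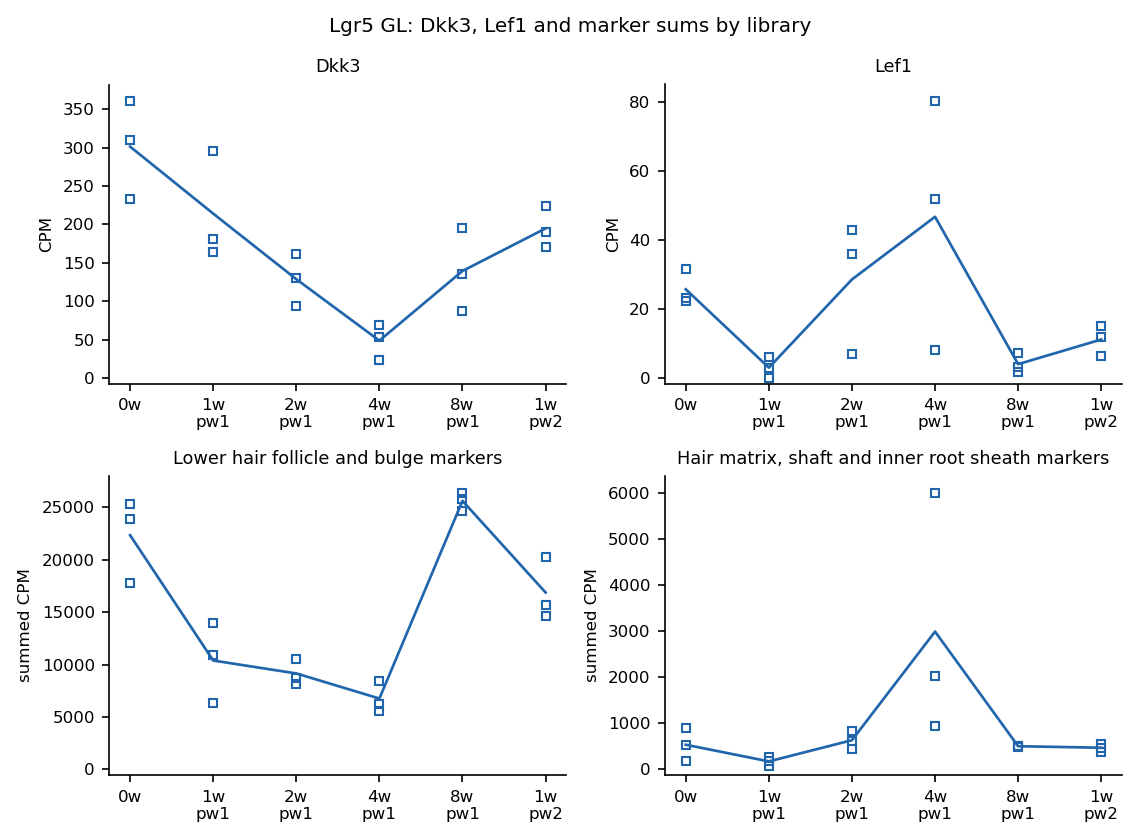
Dkk3 and Lef1 in CPM (upper panels) and the summed CPM of 2 marker lists (lower panels) in every Lgr5 GL library (squares) at the 6 time points, with lines through the group means. Dkk3 and the bulge sum, most of which is Krt15, are both lowest at 4w pw1 but part at 8w pw1. The widest spreads of Lef1 and of the hair matrix sum are both at 4w pw1.

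In Lrig1 GL cells Dkk3 was lower and had no called change. It was 0, 120 and 82.0 CPM at 0w and 40.6, 33.6 and 45.1 CPM at 4w pw1. The first of the 0w libraries had 0 counts, which allows up to 1.33 CPM, and without it the 0w mean was 101 CPM in place of 67.4 CPM. The log2 change at 4w pw1 was -0.77 (SE 0.92).

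Sfrp1 varied widely between the libraries of a group and no time point stood apart. For Lrig1 GL, it ran from 24.1 to 306 CPM over 18 libraries, and 1 library at 8w pw1 held the highest value beside 52.1 and 76.4 CPM. The mean at 8w pw1 was 145 CPM with that library and 64.3 CPM without it, against 73.6 CPM at 0w. For Lgr5 GL, it ran from 35.5 to 431 CPM, and the 1w pw1 libraries alone spanned 35.5, 193 and 396 CPM. Its largest log2 change was 0.90 at 8w pw1 in Lrig1 GL (SE 0.75) and -0.91 at 8w pw1 in Lgr5 GL cells (SE 0.60).

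Wif1 was detected in few Lrig1 GL libraries before 8w pw1. Its level there was 0, 1.41 and 0 CPM at 0w, 0 in all 3 libraries at 1w pw1 and 16.4, 6.80 and 33.6 CPM at 8w pw1. All 3 libraries at 8w pw1 lay above those at 0w, with a fitted log2 change of 4.97 (95% CI -0.17 to 10.12, adjusted p = 0.233). Against 1w pw1 the mean at 8w pw1 was at least 29.7-fold higher and at 1w pw2 at least 17.4-fold higher, taking 3 counts over the group as the limit for 0 counts. In Lgr5 GL cells Wif1 was 44.8, 27.1 and 142 CPM at 0w and 0, 0 and 69.2 CPM at 1w pw1, and no time point was called.

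The week after the second wound was compared with the week after the first. The test called 0 of 8 genes in Lrig1 GL cells, where 0% of all genes were called, and 0 of 8 in Lgr5 GL cells, where 0.266% were called (adjusted p under 0.05, edgeR). An unadjusted p under 0.05 was reached by Wif1 in Lrig1 GL and by Tcf7l2 in Lgr5 GL cells. DESeq2 also called 0 of the 8 in each population. Tcf7l2 in Lgr5 GL was 83.4, 216 and 157 CPM at 1w pw1 and 273, 280 and 228 CPM at 1w pw2, which did not overlap, with a log2 difference of 0.78 (95% CI 0.15 to 1.41, adjusted p = 0.215). Ctnnb1 and Lef1 in Lgr5 GL also had all 3 libraries at 1w pw2 above all 3 at 1w pw1, with log2 differences of 0.32 (adjusted p = 0.520) and 1.74 (adjusted p = 0.346). That made 3 of 8 genes in Lgr5 GL, against 0 of 8 in Lrig1 GL, and the share over all genes was not counted. Without library 3 at 1w pw1, which held all the Wif1 reads of that group, Wif1 passed the test in Lgr5 GL cells (adjusted p = 0.0458).

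The levels of the 2 populations were then compared at each time point in a single fit of all 36 libraries. It covered the 16153 genes present in both tables that passed the filter on low counts over the 36 libraries together. A gene could pass this filter through 1 population alone, so the shares of all genes given for this fit can include such genes. The populations were counted in separate tables and come from separate mouse lines, so population, line and library set cannot be told apart. Of 48 gene and time point pairs 5 were called, all lower in Lrig1 GL. The counts were 0 of 8 at 0w (2.86% of all genes called), 0 at 1w pw1 (3.82%), 1 at 2w pw1 (1.89%), 2 at 4w pw1 (3.56%), 1 at 8w pw1 (12.1%) and 1 at 1w pw2 (6.72%). All 3 Lrig1 GL libraries lay below all 3 Lgr5 GL libraries in 25 of the 48 pairs and above them in 0. Over all genes and time points they lay below in 16.1% and above in 12.3% of pairs.

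Tcf7l1 accounted for 3 of the 5 calls. At 8w pw1 it was 16.4, 18.1 and 19.5 CPM in Lrig1 GL and 93.7, 93.6 and 105 CPM in Lgr5 GL cells, the tightest pair of groups for this gene. At 1w pw2 it was 15.6, 8.20 and 23.4 CPM against 65.9, 95.9 and 107 CPM. The groups did not overlap at any time point after 0w. The log2 difference (Lrig1 GL minus Lgr5 GL) was -2.84 at 4w pw1 (SE 0.71, adjusted p = 0.0214), -2.43 at 8w pw1 (SE 0.69, adjusted p = 0.0190) and -2.52 at 1w pw2 (SE 0.69, adjusted p = 0.0242), against -0.92 at 0w (SE 0.65, adjusted p = 0.495). Mitochondrial transcripts took 12.8% of the counts in Lrig1 GL at 8w pw1 against 3.05% in Lgr5 GL, and their part in this difference was not tested. Each of these calls was lost in some fits that left out a library. At 4w pw1 these were library a of Lrig1 GL (-2.22, adjusted p = 0.0835) and libraries a and c of Lgr5 GL (adjusted p = 0.0560 and 0.0626). At 8w pw1 they were libraries a, b and c of Lrig1 GL, with an adjusted p of 0.0576 to 0.0749. At 1w pw2 they were libraries 1 and 2 of Lrig1 GL and 2 and 3 of Lgr5 GL, with an adjusted p of up to 0.164. With each library's trend on GC content removed, the differences were -1.39 at 8w pw1 (adjusted p = 0.257) and -1.65 at 1w pw2 (adjusted p = 0.197). With 2 surrogate variables the calls at 4w pw1 (-2.37, adjusted p = 0.0641) and 1w pw2 (-2.04, adjusted p = 0.0890) were lost. With estimated surrogate variables all 3 differences turned positive, at 0.19, 0.18 and 0.68, and none was called. Over all genes that fit called 7, 3 and 2 at these time points in place of 575, 1954 and 1085.

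Tcf7l2 and Ctnnb1 gave the other two calls. Tcf7l2 at 4w pw1 was 91.0, 123 and 118 CPM in Lrig1 GL and 353, 286 and 255 CPM in Lgr5 GL cells, a log2 difference of -1.43 (SE 0.32, adjusted p = 0.0106). Without library a of Lrig1 GL the adjusted p was 0.0737, and without library a of Lgr5 GL it was 0.0517. Ctnnb1 at 2w pw1 was 193, 76.3 and 83.1 CPM in Lrig1 GL and 302, 248 and 252 CPM in Lgr5 GL cells, a log2 difference of -1.18 (SE 0.32, adjusted p = 0.0467). This last call sat at the threshold and was lost in 33 of the 36 fits that left out 1 library.

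Averaged over the 6 time points, which uses all libraries at once, 5 of the 8 genes were lower in Lrig1 GL, where 19.3% of all genes were called, 1116 higher and 2008 lower. This contrast was chosen after the data were seen. The log2 difference was -2.15 for Tcf7l1 (SE 0.28, adjusted p = 8.68e-07), -1.50 for Dkk3 (SE 0.29, adjusted p = 1.71e-04) and -1.39 for Sfrp1 (SE 0.30, adjusted p = 5.48e-04). For Lef1 it was -2.68 (SE 0.61, adjusted p = 0.00102). For Wif1 it was -4.07 (SE 0.87, adjusted p = 6.22e-04), a value that depends on the prior count because Wif1 was at 0 in every Lrig1 GL library at 1w pw1. Without library 3 of Lgr5 GL at 1w pw1 Wif1 was no longer called, with a log2 difference of -2.54.

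Ctnnb1 was also lower on average by less than the required fold (log2 difference -0.78, SE 0.13, adjusted p = 2.34e-05), as was Tcf7l2 (-0.42, SE 0.13, adjusted p = 0.0121). Axin2 did not go the same way. Its log2 difference was 0.53 (95% CI -0.14 to 1.2, adjusted p = 0.224), and its fitted level was higher in Lrig1 GL at 5 of the 6 time points, by up to 1.36 at 1w pw1 (SE 0.83).

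Follicle markers differed between the populations as well. The sum of the 10 lower follicle and bulge markers was 5908 to 9230 CPM in Lrig1 GL and 17778 to 25331 CPM in Lgr5 GL cells at 0w, and 1071 to 5229 CPM against 5609 to 26399 CPM later. Fibroblast markers summed to 3.76 to 117 CPM in Lrig1 GL and 164 to 595 CPM in Lgr5 GL libraries of the same 8 listed markers, of which Lum and Pdgfrb are not listed for Lrig1 GL cells. The part of either in the differences of Tcf7l1, Dkk3, Sfrp1, Wif1 and Lef1 was not tested. Estimated surrogate variables, which remove variation shared by many genes, took away all 5 of these calls. Over all genes 12 were then called in place of 3124.

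**Figure D4:**
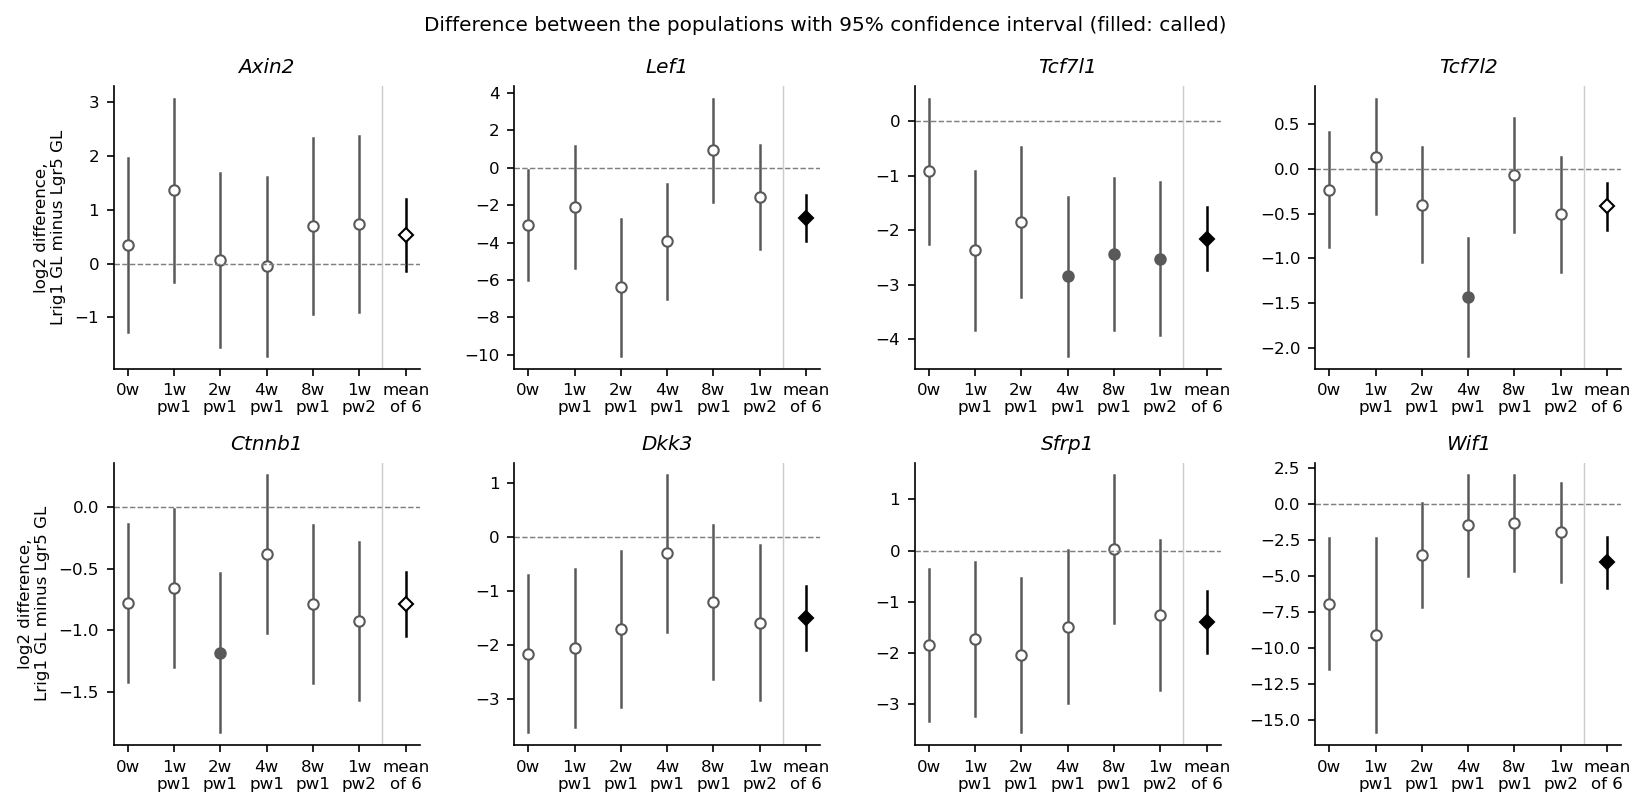
Fitted log2 difference of each gene, Lrig1 GL minus Lgr5 GL (vertical axis), at each time point and as the mean of the 6 (horizontal axis), with 95% confidence intervals as bars and filled symbols where the difference was called. Tcf7l1 is filled at 4w pw1, 8w pw1, 1w pw2 and in the mean, and the Axin2 intervals span 0 throughout.

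Whether a gene's change against 0w differed between the populations needs its own test, and it called 0 of the 40 gene and time point pairs. The background was 0.0495% of all genes at 1w pw1, 0% at 2w pw1, 0.0929% at 4w pw1, 1.11% at 8w pw1 and 0.155% at 1w pw2. An unadjusted p under 0.05 was reached by 3 of the 40, and DESeq2 called 1. For Dkk3 at 4w pw1 the change in Lrig1 GL minus that in Lgr5 GL was 1.86 (95% CI -0.17 to 3.89, adjusted p = 0.519). A fall of Dkk3 particular to Lgr5 GL cells was therefore not shown. For Tcf7l2 at 4w pw1 the difference of the changes was -1.2 (95% CI -2.11 to -0.29, adjusted p = 0.324) and for Tcf7l1 it was -1.93 (adjusted p = 0.475).

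The wider pathway was read from a list of 112 other Wnt genes, of which 89 were in the Lrig1 GL and 96 in the Lgr5 GL table and 80 and 95 were tested. Over the time course 3 of 80 passed for Lrig1 GL, where 1.63% of all genes were called, and 2 of 95 for Lgr5 GL, where 1.13% were, and 0 passed in either with the replicate number as a block. In Lrig1 GL these were Fzd7, a Frizzled receptor, Lgr4, a receptor for R-spondins, and Tnks2, a tankyrase that promotes the degradation of Axin. Fzd7 was 91.8, 117 and 107 CPM at 0w and 265, 265 and 202 CPM at 8w pw1 (time course adjusted p = 0.0187). Lgr4 was 158, 450 and 179 CPM at 0w and 630, 709 and 631 CPM at 8w pw1 (adjusted p = 0.0473). Tnks2 was 130, 191 and 137 CPM at 0w and 250, 367 and 402 CPM at 1w pw2 (adjusted p = 0.0417). For each of the 3, no library at the later time point named lay as low as those at 0w. In edgeR's test of that time point against 0w none was called. The adjusted p was 0.0509 for Fzd7, 0.0984 for Lgr4 and 0.0949 for Tnks2. Mitochondrial transcripts took a mean of 4.58% of the Lrig1 GL counts before wounding, against 12.8% at 8w pw1 and 7.03% after the second wound, and their part in these levels was not tested.

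For Lgr5 GL, the 2 genes were Ccnd1, the cell cycle gene for cyclin D1, and Dlx3, a homeobox gene of the hair matrix. Ccnd1 rose from 31.4, 38.8 and 44.3 CPM at 0w to 134, 110 and 153 CPM at 4w pw1, a log2 change of 1.74 (SE 0.31, adjusted p = 0.0319). Its mean was 38.2 CPM at 0w, 89.2 at 1w pw1, 113 at 2w pw1, 54.6 at 8w pw1 and 113 at 1w pw2. Dlx3 was 4.31, 7.12 and 0.770 CPM at 0w, 0.374, 0.643 and 1.39 CPM at 1w pw1 and 26.4, 56.2 and 75.6 CPM at 4w pw1 (time course adjusted p = 0.00747). Its change at 4w pw1 against 0w was not called in edgeR's test (log2 change 3.61, adjusted p = 0.0676). The hair matrix and shaft sums given for Lef1, from 181 to 897 CPM at 0w and from 948 to 6009 CPM at 4w pw1, were also highest at 4w pw1, and the part of these cells in the Dlx3 level was not tested. Between the wounds Dlx3 differed by 4.45 on the log2 scale, with more after the second (SE 0.83, adjusted p = 0.0285).

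**Figure D5:**
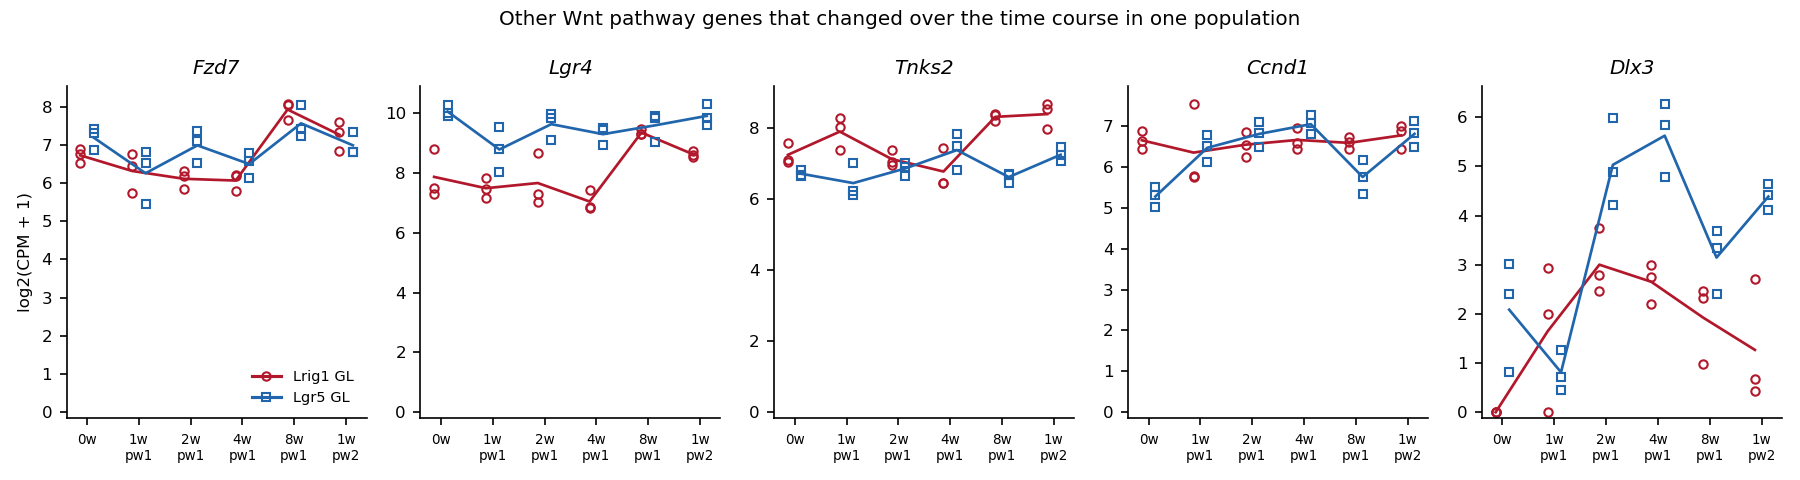
Level of the 5 genes of the wider list that passed the time course test in one population, as log2(CPM + 1) (vertical axis) at the 6 time points (horizontal axis), with each library as a circle (Lrig1 GL) or square (Lgr5 GL) and lines through the means of the plotted values. Fzd7 and Lgr4 are highest at 8w pw1 in Lrig1 GL, and Ccnd1 and Dlx3 are highest at 4w pw1 in Lgr5 GL.

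Single time points called few of the wider list, and the genes named here were chosen after their values were seen. In Lrig1 GL cells 3 of 80 passed at 8w pw1 (2.82% of all genes), the kinase gene Gsk3b (log2 change 1.51, adjusted p = 0.0433), the tankyrase gene Tnks (1.70, adjusted p = 0.0459) and Igfbp4 (-1.42, adjusted p = 0.0356). At 1w pw2 2 of 80 passed (1.23% of all genes), the kinase gene Csnk1a1 (1.2, adjusted p = 0.0485) and the inhibitor Sostdc1 (-1.23, adjusted p = 0.0485). For Lgr5 GL, 3 of 95 passed at 1w pw1 (1.29% of all genes), the ligands Wnt5a (3.15, adjusted p = 0.0434) and Wnt6 (-3.89, adjusted p = 0.0426) and the transducer Dvl1 (-1.44, adjusted p = 0.0406). From the first to the second wound Wnt6 rose (4.67, adjusted p = 0.0362), where 0.266% of all genes were called. By role, the genes named next were those with the highest mean CPM, which is not corrected for length, and their levels are given as mean CPM per kb of exon. In Lrig1 GL and Lgr5 GL respectively these were 330 and 192 for the inhibitor Sostdc1, 105 and 46.4 for the target Cd44, 41.5 and 31.9 for the secretion gene Wls, 40.6 and 41.8 for the nuclear partner Ctbp1, and 52.8 and 136 for Lgr4. Each of these was also the highest of its role per kb. Among ligands the rule took Wnt4 in Lrig1 GL (21.1 CPM per kb), where Wnt10a was higher per kb (33.2), and Wnt10a in Lgr5 GL (22.9). Among receptors it took Fzd7 in both (26.6 and 28.3 CPM per kb), although Fzd10 was higher per kb in Lrig1 GL (33.6). In the destruction complex group it took Csnk1a1 in Lrig1 GL (53.4 CPM per kb, beside 53.9 for Fbxw11) and Gsk3b in Lgr5 GL (35.0).

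Between the populations, 27 of 86 tested genes of the wider list differed in the mean of the time points, 6 higher and 21 lower in Lrig1 GL, where 19.3% of all genes were called, 1116 higher and 2008 lower. The median log2 difference of the list was -0.27, against -0.08 for all genes and -1.44 for the 8. At single time points 3 to 12 of the 86 passed, where 1.89 to 12.1% of all genes were called. Of the genes named above, Lgr4 was lower in Lrig1 GL by a log2 difference of -1.52 (SE 0.16, adjusted p = 4.47e-08) and Dlx3 by -2.49 (SE 0.46, adjusted p = 1.17e-04), while Wnt4 was higher (1.08, SE 0.17, adjusted p = 2.03e-05).

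The genes whose levels moved most like each of the 8 were found by Pearson's r of log2 CPM over the 36 libraries after each population's mean was taken off, among 9111 candidates. They are a description of libraries that share depth and cell makeup, chosen as the highest of many. For Dkk3 they were Tradd (0.792), Washc3 (0.789) and Srprb (0.783), for Wif1 Nr3c1 (0.763), Lifr (0.730) and Lemd3 (0.708), and for Sfrp1 Tasp1 (0.714), Cpt1a (0.695) and Pot1a (0.693). For Tcf7l2 they were Sesn3 (0.760), Serinc5 (0.720) and Fry (0.708), and for Tcf7l1 Arid5a (0.760), Zfp422 (0.716) and Sorbs3 (0.694). For Axin2 they were AC154232.2 (0.705), Etv3 (0.700) and Ifih1 (0.696), for Ctnnb1 Ank (0.676), Acsl5 (0.620) and Mast2 (0.609), and for Lef1 Arhgap24 (0.644), Rbm6 (0.622) and Slc22a15 (0.620). None of these 24 genes is in the wider list.

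Among the 8 themselves, r over the 18 libraries of a population ran from -0.55 (Tcf7l1 and Ctnnb1) to 0.65 (Axin2 and Wif1) in Lrig1 GL and from -0.25 (Tcf7l2 and Dkk3) to 0.81 (Axin2 and Tcf7l1) in Lgr5 GL cells. The last pair had a Spearman's rho of 0.40, and both genes were lowest in the same library at 0w (1.15 and 20.8 CPM). Lef1 and Wif1 had an r of 0.47 and 0.53. The points share library depth, and zeros in the same libraries enter the Lef1 and Wif1 values.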

How the data were processed

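Mini-bulk RNA-seq of sorted tdTomato+ cells was analysed from 36 libraries, 18 of Lrig1 GL and 18 of Lgr5 GL cells. The authors deposited raw read counts per gene in 1 table for each population. According to the study's methods and the submitters' processing notes, reads were trimmed with Trim Galore (0.5.0), aligned to GRCm38 with HISAT2 (2.2.01) and counted over exons by gene name with featureCounts (1.6.12). Both tables hold no gene under 1 CPM in 3 libraries, so weakly expressed genes had been removed before deposit. Total counts lay between 765252 and 3365666 for Lrig1 GL, and between 1297798 and 6960537 for Lgr5 GL libraries.

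Groups were taken from the labels. For 15 columns the name gave a labelled replicate number, and for 21 it gave the group only, so those libraries carry the letters a, b and c. The study counts mice as its replicates, but the labels do not tie each library to a mouse, so p-values measure the spread between libraries.

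Counts were scaled by TMM, filtered by group at a minimum count of 10 and tested with the quasi-likelihood F-test of edgeR (4.0.16, R 4.3.3), without covariates, for each population alone (12 residual degrees of freedom) and for both together (24). P-values were adjusted by Benjamini-Hochberg over all genes tested. A gene was called at an adjusted p under 0.05 and a log2 change above 1 in size, and on the adjusted p alone for 1w pw2 against 1w pw1 and for differences between changes. Log2 changes used a prior count of 0.125. The study's methods also name surrogate variables in a number that is not given, so these were alternatives (sva 3.50.0). Other alternatives were a likelihood ratio test, DESeq2 (1.42.0) as a test and for size factors alone, other filters, a prior count of 2, the replicate number as a block, Gm12415 removed, a GC trend removed, limma-voom (limma 3.58.1) and each library left out. The scripts were tested on simulated data. The 8 genes, the wider list and the marker lists were chosen with earlier results of these data known. All 8 genes are named, and of the wider list those that passed the time course test and those of the highest mean CPM of each role. Genes of the wider list that passed at a single time point or between the wounds, and the exceptions per kb, were named after their values were seen.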

Additional observations from a re-analysis of the deposited data

How the results depend on the processing

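In Lrig1 GL cells 0 of the 8 genes was called over the time course, at single time points or between the wounds in all 12 alternatives and with each of 18 libraries left out. In Lgr5 GL cells the time course count of 1 became 2 with the likelihood ratio test and with DESeq2, 0 with estimated surrogate variables and 0 to 1 with a library left out. The count of 1 against 0w likewise became 2, 2 and 0, and 0 to 2 with a library left out, where the 2 came without library 3 at 1w pw1. Between the wounds the count of 0 became 0 to 1 with a library left out. The 5 differences between the populations at single time points became 10 with the likelihood ratio test, 14 with DESeq2, 10 with limma-voom, 3 with the GC trend removed, 3 with the replicate block, 0 with estimated surrogate variables and 2 to 9 with a library left out (9 without replicate 1 of Lrig1 GL at 0w and 2 without library a of Lgr5 GL at 4w pw1). Over all genes the 4999 calls between the populations at single time points ran from 97 to 9879 over the alternatives. The 0 differences between changes became 1 with DESeq2, and over all genes the 227 such calls ran from 23 to 1974. The 5 genes called in the mean of the time points became 0 with estimated surrogate variables and 4 to 5 with a library left out.

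With estimated surrogate variables the fitted difference between the populations turned positive for Lef1 (0.80) and Wif1 (0.58) at 0w and for Tcf7l1 after the first wound (0.72 at 2w, 0.19 at 4w, 0.18 at 8w) and the second (0.68), and in the mean for Lef1 (1.62), Tcf7l1 (0.33) and Wif1 (0.98), none of them called. With 2 surrogate variables Tcf7l1 lost its calls at 4w pw1 (adjusted p = 0.0641) and 1w pw2 (adjusted p = 0.0890). With the GC trend removed Tcf7l1 was at -1.39 at 8w pw1 (adjusted p = 0.257) and -1.65 at 1w pw2 (adjusted p = 0.197). Ctnnb1 at 2w pw1 kept its call in 6 of 12 alternatives. Dkk3 at 4w pw1 in Lgr5 GL kept its call in 11 of 12, and was -2.36 with estimated surrogate variables (adjusted p = 0.120). The cause of these shifts was not tested. Over all genes, the time course counts of 233 in Lrig1 GL and 203 in Lgr5 GL ran from 8 to 1999 and from 0 to 1975 over the alternatives, those of the wider list (3 and 2) from 0 to 20 and from 0 to 14, and the 3124 genes of the mean from 12 to 3543. The lowest of these all-gene counts, 8, 0 and 12, came with estimated surrogate variables. The highest time course counts, 1999 and 1975, came with the likelihood ratio test. Leaving out low genes under 1 CPM in 3 libraries equals no filter here.

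Libraries with the same replicate number did not deviate together (mean r of -0.00644 in Lrig1 GL and 0.00393 in Lgr5 GL), so they share only a number. With the replicate block Ctnnb1 at 2w pw1 (adjusted p = 0.113) and Tcf7l1 at 1w pw2 (adjusted p = 0.107) were no longer called, and all-gene time course counts were 16 and 46. Depth limits Lef1, Wif1, Axin2, Dkk3 and Tcf7l1, which had 0 to 3 counts in some libraries. The mean over time points and the fits without the library of the highest hair matrix sum were added after the data were seen.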
